A study of Mus musculus with 24 samples.

Results

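The genes described here are 10 components of TGF-β signalling, chosen by their gene symbols out of 53392 genes quantified. They comprise 4 ligand genes (*Tgfb1*, *Tgfb2*, *Tgfb3* and *Inhbb*), 3 genes of latent TGF-β binding proteins (*Ltbp1*, *Ltbp3* and *Ltbp4*) and 3 receptor genes (*Tgfbr1*, *Tgfbr2* and *Tgfbr3*). On GRCm38 the ligand genes lie at chr7:25687002-25705077 (*Tgfb1*), chr1:186622792-186705989 (*Tgfb2*), chr12:86056745-86079041 (*Tgfb3*) and chr1:119415465-119422248 (*Inhbb*). The binding protein genes lie at chr17:75005568-75392512 (*Ltbp1*), chr19:5740904-5758532 (*Ltbp3*) and chr7:27305136-27337692 (*Ltbp4*), and the receptor genes at chr4:47353222-47414931 (*Tgfbr1*), chr9:116084293-116175360 (*Tgfbr2*) and chr5:107106570-107289629 (*Tgfbr3*). All 10 had enough counts to be tested in every comparison. The study set muscle stem cells (MuSCs) and their progeny from *mdx* mice, which lack full-length dystrophin, against those of WT mice by bulk RNA-seq of 24 libraries, with 3 biological replicates in each of 8 groups. Every mouse carried the *Pax7*-nGFP reporter, in which a nuclear GFP marks cells that express *Pax7*, the transcription factor of MuSCs, so WT here means Pax7-nGFP and *mdx* means mdx.Pax7-nGFP. Freshly isolated MuSCs (FiMuSCs) came from uninjured hindlimb muscle, and activated MuSCs (AMuSCs) from muscle taken 3 days after intramuscular injection of 10 µM cardiotoxin, a venom toxin that destroys myofibres. Both were sorted as cells positive for GFP and ITGA7 and negative for CD31, CD45, SCA1 and CD11b. Primary myoblasts, the cultured progeny of MuSCs, were grown on collagen with 20% foetal bovine serum and 5 ng/mL bFGF, and myotubes formed from them over 2 days in 5% horse serum. The age of the mice used for these libraries was not given in the sources used here. Sorted cells were extracted with one RNA kit and cultures with another, which makes kit and cell origin inseparable, and no test was made between sorted and cultured cells.

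TGF-β ligands are secreted as latent complexes, in which the mature dimer stays bound to its own propeptide and, through that, to a latent TGF-β binding protein that anchors it in fibrillin-rich matrix. Integrins, proteases and thrombospondin release the ligand, which then assembles a type II receptor (*Tgfbr2*) with a type I receptor (*Tgfbr1*) to phosphorylate Smad2 and Smad3. Betaglycan, the product of *Tgfbr3*, is a co-receptor that presents TGF-β2 in particular and also binds inhibins. *Inhbb* encodes the βB subunit shared by activin B, which signals through activin receptors to the same Smads, and inhibin B, which opposes activins. In skeletal muscle TGF-β and activins are known as inhibitors of myoblast differentiation and as drivers of fibrosis, and variants of *Ltbp4* modify the severity of muscular dystrophy in mice.

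Libraries held 37280196 to 64429222 counts (median 47357463). Dystrophin (*Dmd*) was measured at 139 to 149.5 CPM in *mdx* FiMuSCs, against 230.4 to 262 CPM in WT FiMuSCs, and at 38.1 to 47.1 CPM in *mdx* myotubes, against 205 to 230.1 CPM in WT myotubes. In AMuSCs it lay at 16.4 to 34.4 CPM in *mdx* and 15.4 to 20.8 CPM in WT. The *mdx* allele is a point mutation that leaves the transcript countable, and the AMuSC groups overlapped. CPM stands for counts scaled to a common library size with TMM factors over all 24 libraries. The 9 myogenic markers summed to 2213 CPM or more in every library. The sorted *mdx* cells also held macrophage and leukocyte transcripts. The 10 markers of that list summed to 145.8, 289.8 and 4239 CPM in *mdx* AMuSCs, against 8.77 to 26.5 CPM in WT AMuSCs, and to 394 to 1210.1 CPM in *mdx* FiMuSCs, against 62.6 to 308 CPM in WT FiMuSCs. The highest of these sums, 4239 CPM, belonged to replicate 1 of the *mdx* AMuSCs. Replicate 1 of the *mdx* FiMuSCs stood apart with 724 CPM of endothelial and 557 CPM of mural markers, where the other *mdx* FiMuSCs had 278 to 284 and 267.5 to 299 CPM and WT FiMuSCs 291 to 343 and 280.5 to 349 CPM. Among cultured cells, replicate 2 of the *mdx* myoblasts stood apart with 172 CPM of the macrophage markers, against 2.92 and 5.74 CPM in the other two and 2.28 to 3.29 CPM in WT myoblasts. Replicate 1 of the *mdx* myotubes stood apart with 2582 CPM of mural markers. The other *mdx* myotubes had 1277 and 1198 CPM of these, and WT myotubes 1170 to 1222 CPM. In bulk libraries, fewer cells of a type and less RNA per cell cannot be told apart.

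To compare levels between genes, the deposited TPM values, which the authors' quantification corrected for transcript length, were added up per gene. In FiMuSCs *Ltbp4* was the most abundant of the members. *Ltbp4* reached 296 ± 35.1 TPM in *mdx* FiMuSCs and 472 ± 12.5 TPM in WT FiMuSCs (SD, n = 3 each). *Ltbp1* had 81.3 ± 1.71 TPM in *mdx* and 117 ± 15.2 TPM in WT, and the betaglycan gene *Tgfbr3* 77.7 ± 21.7 TPM in *mdx* and 104 ± 9.40 TPM in WT. These 2 genes were not ordered in *mdx* FiMuSCs, where *Tgfbr3* had 52.8, 87.0 and 93.1 TPM and *Ltbp1* 81.8, 82.7 and 79.4 TPM, while *Tgfb1* had the lowest level of the 10 in WT FiMuSCs at 5.78 ± 2.75 TPM. The order was another in myotubes, where *Tgfb3* led the members at 68.9 ± 21.2 TPM in *mdx* and 53.7 ± 1.91 TPM in WT, and *Ltbp4* stood at 2.02 ± 0.935 TPM in *mdx* and 0.695 ± 0.145 TPM in WT. Part of the *Ltbp4* sum came from non-coding transcripts, mainly retained introns, which together took 47.7 to 52.2% of it in *mdx* FiMuSCs and 55.4 to 57.0% in WT FiMuSCs.

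**Figure D1:**
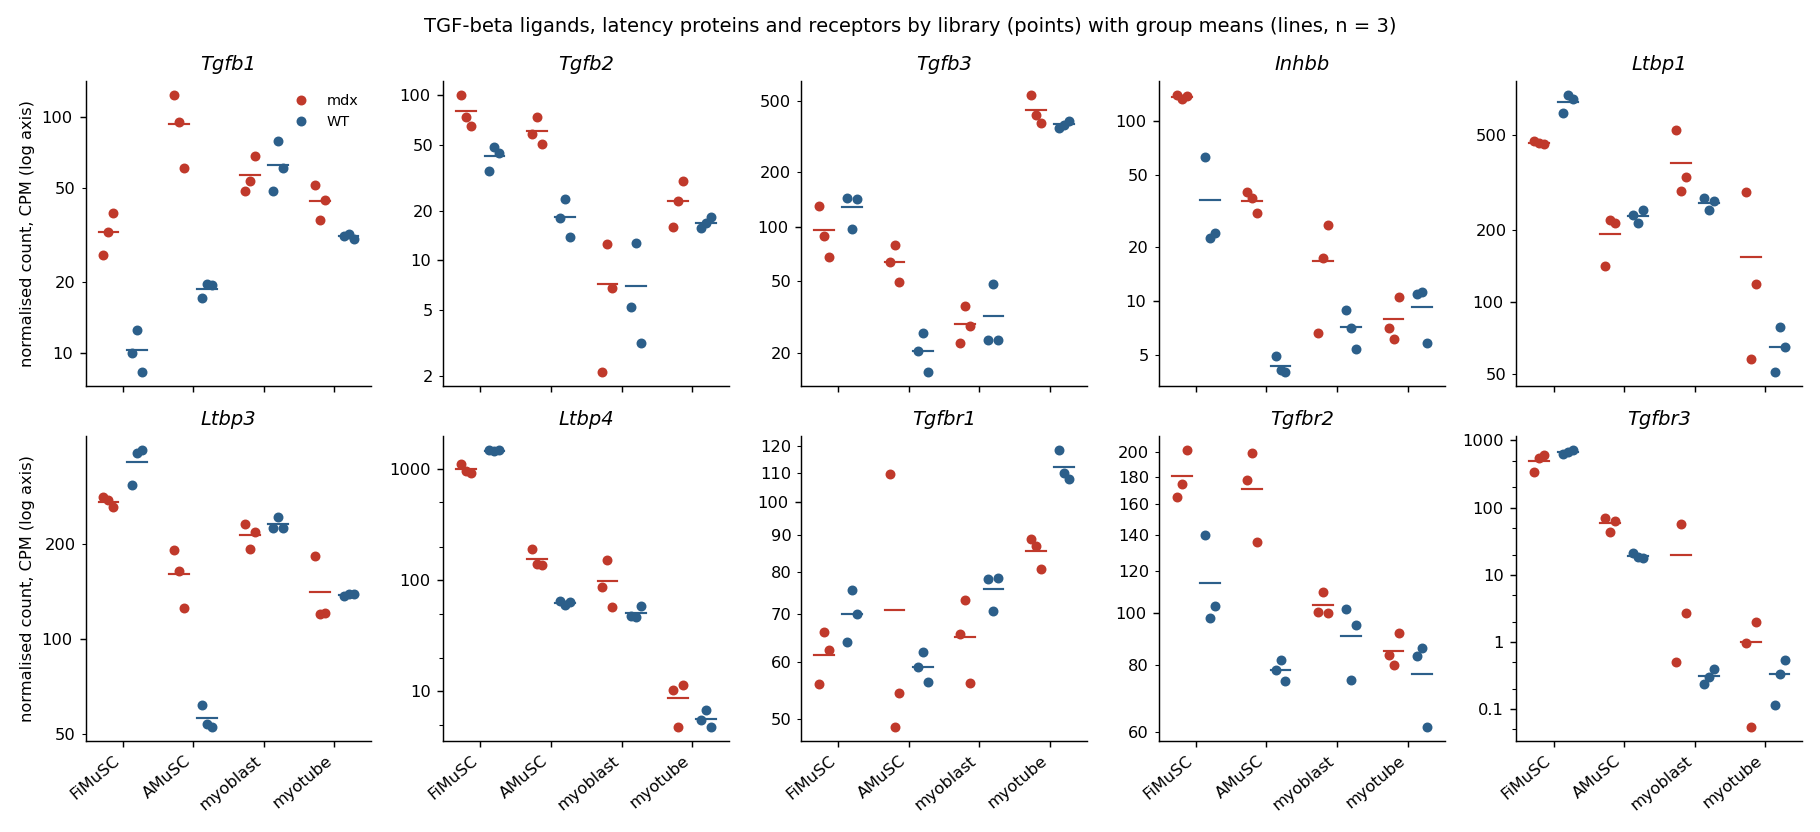
Normalised counts (CPM, log axes that differ between panels) of the 10 genes in each of the 24 libraries, with *mdx* (red) left of WT (blue) in each state and lines for the group means (n = 3). *Ltbp4*, *Tgfbr3* and *Ltbp1* have their highest group means in FiMuSCs and *Tgfb3* in myotubes, and in AMuSCs the *mdx* points of 8 genes lie above all WT points.

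*Ltbp1* and *Ltbp4* each have 2 groups of start sites, from which forms with different N-terminal regions are made. A promoter window of each group is shown because the estimated use of these start sites differed between cell states. Each window runs from 250 bases before to 50 bases after a RefSeq start site, on GRCm38.p6, written 5′ to 3′ on the strand of the gene, and capitals mark matches on either strand to the cAMP response element TGACGTCA, the AP-1 site TGANTCA, the GC box GGGCGG or the palindromic Smad element GTCTAGAC.
Ltbp1 upstream start, chr17:75005279-75005578, + strand: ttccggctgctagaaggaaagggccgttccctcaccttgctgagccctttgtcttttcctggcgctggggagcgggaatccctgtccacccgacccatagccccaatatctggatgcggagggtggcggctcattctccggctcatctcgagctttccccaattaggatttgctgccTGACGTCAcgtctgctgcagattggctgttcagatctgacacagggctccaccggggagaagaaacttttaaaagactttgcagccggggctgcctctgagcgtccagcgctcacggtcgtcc
Ltbp1 downstream start, chr17:75178531-75178830, + strand: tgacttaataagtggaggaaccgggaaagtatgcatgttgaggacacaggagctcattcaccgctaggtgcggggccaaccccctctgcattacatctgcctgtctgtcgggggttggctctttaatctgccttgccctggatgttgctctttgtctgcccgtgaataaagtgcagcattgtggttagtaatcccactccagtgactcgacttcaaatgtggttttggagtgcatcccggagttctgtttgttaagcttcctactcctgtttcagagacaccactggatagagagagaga
Ltbp4 upstream start, chr7:27337563-27337862, - strand: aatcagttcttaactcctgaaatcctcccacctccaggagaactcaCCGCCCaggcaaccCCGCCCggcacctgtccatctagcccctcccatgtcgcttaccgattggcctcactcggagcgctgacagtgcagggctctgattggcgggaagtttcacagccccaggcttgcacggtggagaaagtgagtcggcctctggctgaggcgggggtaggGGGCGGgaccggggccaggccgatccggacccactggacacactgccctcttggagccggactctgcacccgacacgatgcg
Ltbp4 downstream start, chr7:27333599-27333898, - strand: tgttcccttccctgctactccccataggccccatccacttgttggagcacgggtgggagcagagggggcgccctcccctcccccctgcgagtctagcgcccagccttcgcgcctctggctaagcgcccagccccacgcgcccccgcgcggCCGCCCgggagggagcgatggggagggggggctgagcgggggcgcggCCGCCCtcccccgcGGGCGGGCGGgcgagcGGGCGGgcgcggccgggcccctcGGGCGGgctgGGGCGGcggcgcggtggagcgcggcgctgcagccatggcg
The upstream window of *Ltbp1* held TGACGTCA once, 66 to 73 bases before the start, a motif found in 1.79% of 32851 mouse promoter windows of this length. The downstream window of *Ltbp1* held none of the 4 motifs. The GC box, present in 35.7% of windows, occurred 3 times in the upstream and 7 times in the printed downstream window of *Ltbp4*, where a pair of neighbouring matches overlapped. That window is placed on the start of a non-coding transcript, at position 27333648. The window placed on the start of the main coding transcript, at position 27333663, overlaps it (chr7:27333614-27333913). It is not printed here and held the GC box 9 times. AP-1 sites occur in 7.81% and the Smad element in 0.213% of windows, and neither was in these 4. These matches are letters in a window and were not tested as binding sites. Windows were at hand for 8 of the 10 genes, and those of *Tgfb3* and *Tgfbr3* were not used here.

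The long form of *Ltbp1*, which starts at position 75005568 of chromosome 17 and has 6671 bases, was estimated at 33.0, 30.6 and 30.1 TPM in *mdx* FiMuSCs, against 40.7, 49.0 and 50.1 TPM in WT FiMuSCs. In AMuSCs it was at 3.35, 2.95 and 3.52 TPM in *mdx*, against 2.20, 2.28 and 2.50 TPM in WT. The transcripts from the downstream start, near position 75178810, were less different between states, at 33.8 to 35.8 TPM in *mdx* FiMuSCs and 43.4 to 55.9 TPM in WT FiMuSCs, beside 16.7 to 28.2 TPM in *mdx* AMuSCs and 24.0 to 27.1 TPM in WT AMuSCs. The long form thus made up 46.1 to 49.4% of the TPM of coding transcripts of at least 3000 bases in *mdx* FiMuSCs and 46.7 to 49.1% in WT FiMuSCs, with overlapping genotypes. Its share was 10.96 to 16.7% in *mdx* AMuSCs and 7.51 to 8.65% in WT AMuSCs, and 4.19 to 17.9% across the 12 cultured libraries. With 3 libraries against 3, an exact permutation test of 1 such value cannot go below p = 0.1, so these shares are given as a description. *Ltbp4* came almost wholly from its downstream start in FiMuSCs, with 142 ± 15.5 TPM in *mdx* and 203 ± 8.31 TPM in WT, against 0.408 ± 0.192 TPM in *mdx* and 0.363 ± 0.238 TPM in WT for its upstream start. In myoblasts the share of the upstream start was larger, at 5.32 to 16.0% in *mdx* and 19.5 to 20.7% in WT. Its level there was low, at 1.06 ± 0.42 TPM in *mdx* and 1.03 ± 0.133 TPM in WT. Transcript estimates split reads between forms that share exons and are less certain than gene totals.

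**Figure D2:**
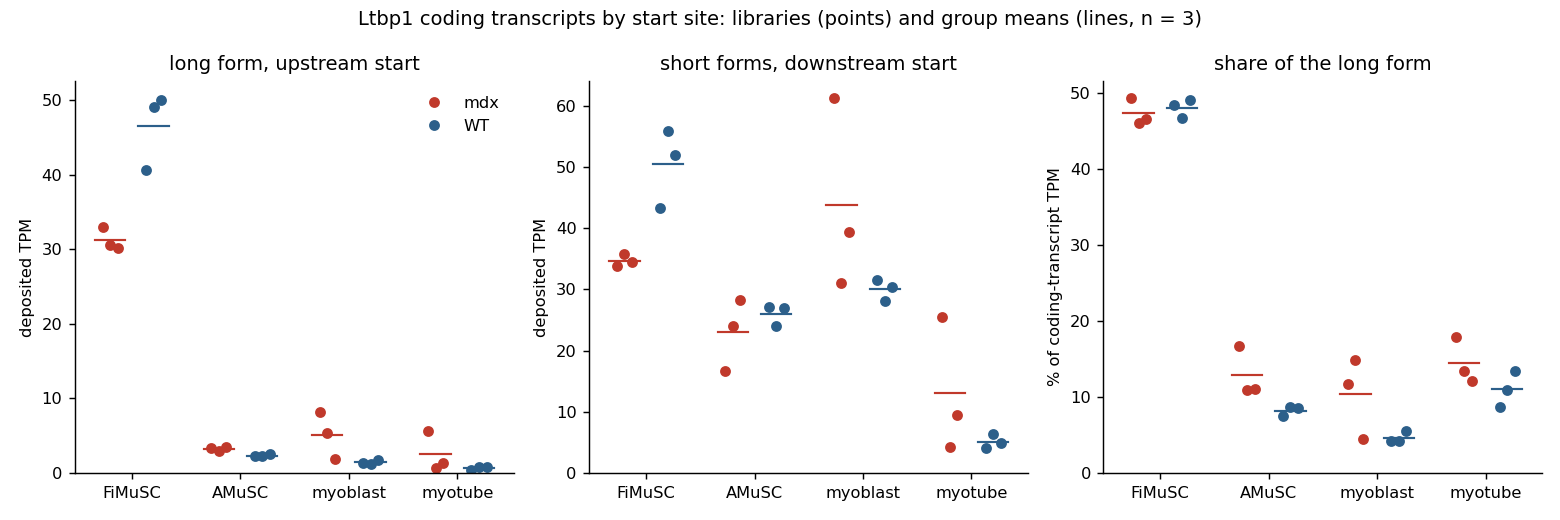
Deposited TPM of *Ltbp1* coding transcripts from the upstream start (left) and the downstream start (middle), and the share of the upstream start in percent (right), in each library of *mdx* (red, left) and WT (blue), with lines for group means (n = 3). The long form lies between 30.1 and 50.1 TPM in the 6 FiMuSC libraries and at 8.16 TPM or less in all others.

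The first comparison asked which of these genes differ between *mdx* and WT MuSCs in uninjured muscle. In *mdx* FiMuSCs 4 ligand or receptor genes were higher and 2 storage genes were lower, so 6 of the 10 passed the edgeR quasi-likelihood test at a Benjamini-Hochberg adjusted p under 0.05. Of the 19406 genes tested 9.67% passed, 5.82% as higher and 3.85% as lower. *Tgfb1*, the ligand best known for fibrosis, had 26.2, 32.6 and 39.5 CPM in *mdx* FiMuSCs, against 10.1, 12.6 and 8.36 CPM in WT FiMuSCs. Every *mdx* library was above every WT library, and the log2 fold change was 1.67 ± 0.20 (SE, edgeR adjusted p = 0.00569). Macrophage and leukocyte markers summed to 394, 656 and 1210 CPM in the same *mdx* libraries and to 92.7, 308 and 62.6 CPM in the WT libraries. *Tgfb1* and this sum thus put the FiMuSC libraries in the same order. The part of these markers in the FiMuSC differences was not tested. *Inhbb* was even at 140.0, 133 and 138 CPM in *mdx* FiMuSCs, against an uneven 63.0, 22.5 and 23.7 CPM in WT FiMuSCs. The difference was 1.92 ± 0.40 on the log2 scale (adjusted p = 0.0347), or 2.57 (adjusted p = 0.000709) without replicate 1 of WT.

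*Tgfb2*, the ligand that relies most on betaglycan, had 100.4, 74.3 and 64.8 CPM in *mdx* FiMuSCs, against 34.7, 48.7 and 44.6 CPM in WT FiMuSCs, and the difference of 0.91 ± 0.20 on the log2 scale passed (adjusted p = 0.0397). *Tgfbr2*, the ligand-binding type II receptor, had 165, 175 and 202 CPM in *mdx* FiMuSCs and 140.0, 98.0 and 103 CPM in WT FiMuSCs, with a difference of 0.67 ± 0.15 on the log2 scale (adjusted p = 0.0396). The groups did not overlap for either gene, and both calls lay close to the threshold. Without replicate 1 of *mdx*, the library with high endothelial and mural markers, the *Tgfb2* difference was 0.70 (adjusted p = 0.0393). *Ltbp1* and *Ltbp4* ran the other way. *Ltbp1* had 468, 461 and 457 CPM in *mdx* FiMuSCs, against 615, 732 and 702 CPM in WT FiMuSCs (log2 fold change -0.56 ± 0.09, adjusted p = 0.0172), and *Ltbp4* had 1104, 956 and 926 CPM in *mdx*, against 1466, 1434 and 1479 CPM in WT (-0.55 ± 0.10, adjusted p = 0.0233). Fibro-adipogenic and mesenchymal markers summed to less in *mdx* FiMuSCs, to 631 to 795 CPM against 908 to 936 CPM in WT FiMuSCs. The median log2 fold change of these 10 markers was 0.55, so the sum and the median went opposite ways. Of the 10, 2 were called higher, 1 lower and none was at 0, and their part in these differences was not tested. *Ltbp3*, another latent TGF-β binding protein gene, had 261 to 281 CPM in *mdx* FiMuSCs and 307 to 398 CPM in WT FiMuSCs and did not pass (log2 fold change -0.42 ± 0.12, adjusted p = 0.0809).

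The remaining 3 genes did not pass in FiMuSCs. For *Tgfb3* the log2 fold change was -0.41 ± 0.27 (adjusted p = 0.405) with overlapping groups, and *Tgfbr1*, the signalling type I receptor, one of -0.18 ± 0.10 (adjusted p = 0.307). *Tgfbr3* had 333, 543 and 609.9 CPM in *mdx* FiMuSCs, against 632, 679 and 721 CPM in WT FiMuSCs, with no overlap and a difference of -0.45 ± 0.21 (adjusted p = 0.243). In all, 8 of the 10 genes had no overlap between genotypes, beside 32.0% of all genes tested. Of the 6 calls, that of *Tgfb1* held under all 13 alternative settings (adjusted p at most 0.0483), while each of the other 5 held under 7 of 13. Only 1 gene was called without replicate 2 of *mdx*, or without replicate 2 or replicate 3 of WT, and 2 without replicate 3 of *mdx*.

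The same comparison 3 days after injury gave larger differences. In *mdx* AMuSCs 8 of the 10 genes were higher than in WT AMuSCs and none was lower, where 14.8% of the 19321 genes tested were called higher, 8.95% lower and 23.7% in either direction. The median log2 fold change of the 10 genes was 1.54, beside 0.04 for all genes. All 8 had no overlap between genotypes, as had 44.2% of all genes. *Inhbb* led with 40.1, 37.0 and 30.9 CPM in *mdx* AMuSCs, against 4.90, 4.10 and 4.01 CPM in WT AMuSCs (log2 fold change 3.03 ± 0.17, edgeR adjusted p = 0.000461). *Tgfb1* had 124, 95.1 and 61.1 CPM in *mdx* AMuSCs, against 17.2, 19.7 and 19.5 CPM in WT AMuSCs (log2 fold change 2.29 ± 0.24, adjusted p = 0.00188).

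The other two TGF-β ligands moved the same way. *Tgfb2* had 58.0, 74.1 and 51.0 CPM in *mdx* AMuSCs, against 18.0, 23.4 and 13.9 CPM in WT AMuSCs (log2 fold change 1.70 ± 0.21, adjusted p = 0.00275). *Tgfb3* had 63.6, 79.0 and 49.2 CPM in *mdx* AMuSCs, against 20.3, 25.6 and 15.6 CPM in WT AMuSCs (1.61 ± 0.22, adjusted p = 0.00366). For all 4 ligand genes every *mdx* library was above every WT library.

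Of the 3 storage genes, 2 were higher as well. *Ltbp3* had 192, 164 and 126 CPM in *mdx* AMuSCs, against 61.6, 53.8 and 52.6 CPM in WT AMuSCs (log2 fold change 1.49 ± 0.17, adjusted p = 0.00204), and *Ltbp4* had 192, 138 and 136 CPM in *mdx*, against 64.9, 59.1 and 63.1 CPM in WT (1.29 ± 0.16, adjusted p = 0.00291). *Ltbp1* had 141, 220.4 and 213 CPM in *mdx* AMuSCs and 229.5, 214 and 242 CPM in WT AMuSCs and did not pass (-0.28 ± 0.18, adjusted p = 0.292). Of the receptors, *Tgfbr3* had 69.0, 43.7 and 62.7 CPM in *mdx* AMuSCs, against 20.8, 18.7 and 17.9 CPM in WT AMuSCs (1.59 ± 0.20, adjusted p = 0.00278), and *Tgfbr2* had 178, 199.6 and 136 CPM in *mdx*, against 78.3, 81.7 and 74.8 CPM in WT (1.10 ± 0.14, adjusted p = 0.00313). The call of *Tgfbr3* was lost when all 24 libraries shared one fit (adjusted p = 0.226).

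*Tgfbr1* had 109.5, 48.8 and 54.3 CPM in *mdx* AMuSCs, against 59.1, 62.0 and 56.3 CPM in WT AMuSCs. Its difference of 0.24 ± 0.32 on the log2 scale (adjusted p = 0.641) rested on replicate 1 of *mdx*, without which it was -0.23. That replicate is the library with 4239 CPM of macrophage and leukocyte markers, and it also had the highest *Tgfb1*. Without it all 8 calls held, with log2 fold changes of 2.01 for *Tgfb1* (adjusted p = 0.00152), 2.93 for *Inhbb* and 1.10 for *Ltbp4*. The other *mdx* libraries still held 145.8 and 289.8 CPM of these markers, and 5 of the 10 markers were called higher in *mdx* AMuSCs and 6 of 10 in *mdx* FiMuSCs. Their part in the differences of the 8 genes was not tested.

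In culture few genes of any kind passed between genotypes. By edgeR none of the 10 genes passed in myoblasts, where 0.360% of 17226 genes did (0.244% higher and 0.116% lower), and none in myotubes, where 0.591% of 16084 genes did (0.373% higher and 0.218% lower). The groups did not overlap for 2 of the 10 genes in myoblasts, beside 21.0% of all genes, and for 2 in myotubes, beside 20.9%. At an unadjusted p under 0.05, 4 of the 10 genes differed in myoblasts, beside 2488 of all 17226 genes. In myotubes 2 differed, beside 2180 of all 16084 genes. DESeq2 called 2 of the 10 in each culture. Of all genes it called 522 higher and 432 lower in myoblasts, and 384 higher and 330 lower in myotubes. *Tgfb1* had 48.7, 53.6 and 68.2 CPM in *mdx* myoblasts, against 48.5, 78.9 and 60.8 CPM in WT myoblasts, so the groups covered each other. In myotubes *Tgfb1* had 51.7, 36.7 and 44.6 CPM in *mdx*, against 31.5, 32.1 and 30.6 CPM in WT, without overlap (log2 fold change 0.50 ± 0.14, adjusted p = 0.214). *Tgfbr1* was the other gene without overlap in myotubes, with 89.0, 87.1 and 80.9 CPM in *mdx*, against 118, 109.9 and 108 CPM in WT (-0.39 ± 0.08, adjusted p = 0.111, with adjusted p = 0.041 without replicate 1 of *mdx*).

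*Tgfbr3* in myoblasts was decided by one library. It had 0.498, 56.5 and 2.65 CPM in *mdx* myoblasts, against 0.234, 0.304 and 0.391 CPM in WT myoblasts, and its difference of 6.02 ± 1.96 on the log2 scale (adjusted p = 0.292) became 2.33 (adjusted p = 0.344) without replicate 2 of *mdx*, the library that also held the macrophage markers. That library had 114.5 CPM of fibro-adipogenic markers, against 35.0 and 59.0 CPM in the other *mdx* myoblasts, and 20.8 CPM of *Calcr*, a gene of quiescent MuSCs, against 0.103 and 1.09 CPM, and the part of either in the *Tgfbr3* value was not tested. In the same library *Ltbp4* had 151 CPM, against 86.8 and 56.9 CPM in the other *mdx* myoblasts and 46.1 to 58.7 CPM in WT myoblasts. *Ltbp1* varied more between *mdx* cultures than between WT cultures, with 522, 289.7 and 332 CPM in *mdx* myoblasts, against 271, 243 and 263 CPM in WT myoblasts, and 287, 57.8 and 118 CPM in *mdx* myotubes, against 50.9, 78.3 and 64.8 CPM in WT myotubes. The value of 287 CPM belonged to replicate 1, the *mdx* myotube library with 2582 CPM of mural markers. That library also had the highest *Tgfb1* and *Tgfb3* of its group and the lowest *Tgfb2*, and the part of these markers was not tested. *Inhbb* had 6.64, 17.2 and 26.2 CPM in *mdx* myoblasts and 8.90, 7.07 and 5.38 CPM in WT myoblasts (1.24 ± 0.49, adjusted p = 0.334), and 6.11 to 10.5 CPM in *mdx* myotubes and 5.82 to 11.1 CPM in WT myotubes. *Tgfbr2* lay between 100.1 and 109.7 CPM in *mdx* myoblasts and 75.0 and 102 CPM in WT myoblasts, *Ltbp3* between 193 and 231 CPM in *mdx* and 224 and 243 CPM in WT. These groups overlapped. So did those of *Tgfb2* (2.11 to 12.6 CPM in *mdx* and 3.18 to 12.7 CPM in WT), *Tgfb3* (22.6 to 36.2 CPM in *mdx* and 23.5 to 48.1 CPM in WT) and *Tgfbr1* (56.1 to 73.2 CPM in *mdx* and 70.7 to 78.5 CPM in WT) in myoblasts. In myotubes the groups overlapped for *Tgfb2* (16.0 to 30.1 CPM in *mdx* and 15.6 to 18.2 CPM in WT), *Tgfb3* (378 to 539 CPM in *mdx* and 355 to 388 CPM in WT), *Ltbp3* (119.9 to 183 CPM in *mdx* and 137 to 139 CPM in WT) and *Ltbp4* (4.80 to 11.3 CPM in *mdx* and 4.79 to 6.76 CPM in WT). They also overlapped there for *Tgfbr2* (80.1 to 91.8 CPM in *mdx* and 61.3 to 86.3 CPM in WT) and *Tgfbr3* (0.0545 to 1.95 CPM in *mdx* and 0.115 to 0.532 CPM in WT). A missed threshold does not show equal levels, and the 95% interval of the log2 fold change in myotubes still ran from -0.08 to 2.61 for *Ltbp1*.

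**Figure D3:**
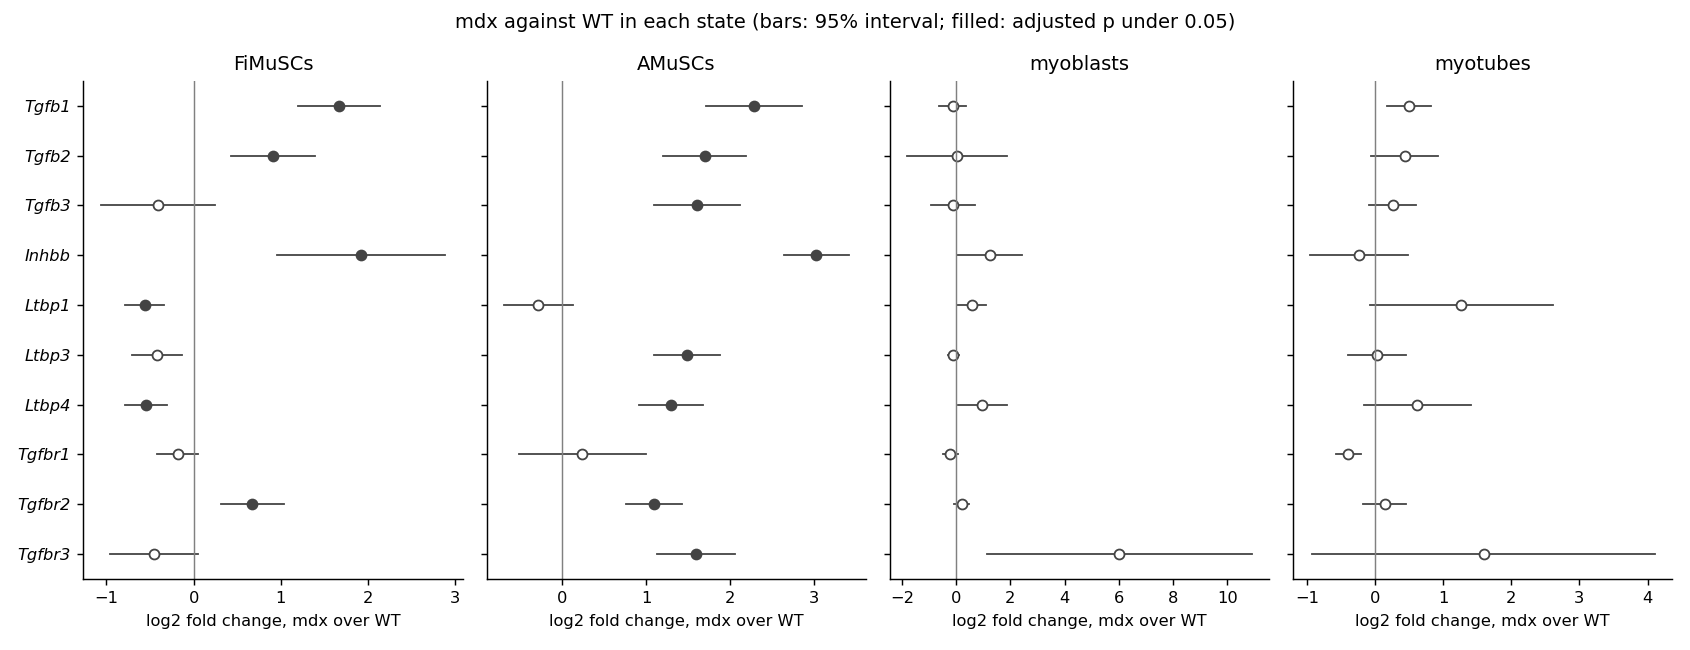
Log2 fold changes of *mdx* over WT with 95% intervals (bars) for the 10 genes in FiMuSCs, AMuSCs, myoblasts and myotubes, where filled points passed an adjusted p under 0.05 and the axes differ between panels. Filled points number 6 in FiMuSCs, 8 in AMuSCs and 0 in both cultures.

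The second question was how the genes respond to injury in each genotype. In *mdx*, 1 gene was higher and 5 were lower in AMuSCs than in FiMuSCs (36.5% of 21086 genes called, 20.5% higher and 16.0% lower), and in WT 1 was higher and 8 were lower (54.9% called, 28.2% higher and 26.7% lower). The states did not overlap for 6 of the 10 genes in *mdx*, beside 47.3% of all genes, and for all 10 in WT, beside 69.4%. *Tgfb1* was the gene that rose, by 1.52 ± 0.24 on the log2 scale in *mdx* (93.4 ± 31.6 CPM in AMuSCs and 32.8 ± 6.64 CPM in FiMuSCs, adjusted p = 0.000466) and by 1.00 ± 0.24 in WT (18.8 ± 1.41 CPM in AMuSCs and 10.3 ± 2.14 CPM in FiMuSCs, adjusted p = 0.00364). The co-receptor gene *Tgfbr3* and the storage gene *Ltbp4* fell most. *Tgfbr3* had 58.5 ± 13.2 CPM in *mdx* AMuSCs and 495 ± 145 CPM in *mdx* FiMuSCs (log2 fold change -3.07 ± 0.23), and 19.1 ± 1.51 CPM in WT AMuSCs and 677 ± 44.6 CPM in WT FiMuSCs (-5.01 ± 0.25). *Ltbp4* had 155 ± 31.7 CPM in *mdx* AMuSCs and 995 ± 95.2 CPM in *mdx* FiMuSCs (-2.67 ± 0.15), and 62.4 ± 2.94 CPM in WT AMuSCs and 1459 ± 23.1 CPM in WT FiMuSCs (-4.41 ± 0.16).

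The injury response differed between genotypes for 4 genes by the interaction term of the fit over the 12 sorted libraries, where 15.1% of 21086 genes were called, 8.14% in the positive and 6.98% in the negative direction. The difference between the injury responses (*mdx* minus WT) was 1.94 ± 0.30 for *Tgfbr3* (adjusted p = 0.00244), 1.75 ± 0.20 for *Ltbp4* (adjusted p = 0.000608), 1.82 ± 0.22 for *Ltbp3* (adjusted p = 0.000699) and 1.94 ± 0.38 for *Tgfb3* (adjusted p = 0.00851). For each of these genes the fall in WT was larger than the change in *mdx*. *Ltbp3* had 160.3 ± 33.0 CPM in *mdx* AMuSCs and 272 ± 10.2 CPM in *mdx* FiMuSCs, and 56.0 ± 4.89 CPM in WT AMuSCs and 365 ± 50.2 CPM in WT FiMuSCs, with log2 fold changes of -0.75 ± 0.15 in *mdx* (adjusted p = 0.00263) and -2.57 ± 0.16 in WT (adjusted p = 1.9e-07). *Tgfb3* fell in WT (-2.51 ± 0.28, adjusted p = 1.81e-05), while its change in *mdx* was -0.57 ± 0.27 (adjusted p = 0.124, with adjusted p = 0.047 without replicate 3 of *mdx* FiMuSCs). The 4 differences held under all settings tried except that of *Tgfbr3*, which did not pass with all 24 libraries in one fit (adjusted p = 0.322).

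*Inhbb* and *Ltbp1* fell in both genotypes, and the difference between responses did not pass for either. *Inhbb* had 36.0 ± 4.68 CPM in *mdx* AMuSCs and 137 ± 3.77 CPM in *mdx* FiMuSCs (log2 fold change -1.91 ± 0.33, adjusted p = 0.0011), and 4.34 ± 0.492 CPM in WT AMuSCs and 36.4 ± 23.1 CPM in WT FiMuSCs (-2.93 ± 0.35, adjusted p = 3.12e-05, with -2.30 without replicate 1 of WT FiMuSCs). The interaction was 1.02 ± 0.46 (adjusted p = 0.163). *Ltbp1* changed by -1.25 ± 0.16 in *mdx* (adjusted p = 0.000142) and -1.45 ± 0.16 in WT (adjusted p = 1.44e-05), with a 95% interval of the difference from -0.31 to 0.69. *Tgfb2* fell in WT by 1.08 on the log2 scale (adjusted p = 0.00141, or 0.144 with a transcript length offset), while in *mdx* its change of -0.38 ± 0.22 did not pass (adjusted p = 0.214), and the difference of 0.71 ± 0.31 did not either (adjusted p = 0.152). Nor did the difference between responses pass for *Tgfb1* (0.53 ± 0.33, adjusted p = 0.322) or *Tgfbr2* (0.34 ± 0.23, adjusted p = 0.353).

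The receptor pair that signals changed least on injury. *Tgfbr2* had 171 ± 32.5 CPM in *mdx* AMuSCs and 181 ± 19.2 CPM in *mdx* FiMuSCs with overlapping libraries, and 78.3 ± 3.42 CPM in WT AMuSCs and 114 ± 22.9 CPM in WT FiMuSCs. The WT difference of -0.40 ± 0.16 was close to the threshold (adjusted p = 0.0492) and held under 11 of 19 alternatives. *Tgfbr1* stayed between 48.8 and 109.5 CPM in *mdx* sorted cells and between 56.3 and 75.7 CPM in WT sorted cells, and passed in neither genotype. Macrophage markers moved unevenly with injury: 0 of 10 were called in *mdx*, 4 of 10 were lower in WT AMuSCs, and fibro-adipogenic markers were lower in 8 of 10 in *mdx* and 9 of 10 in WT. The fibro-adipogenic sums were 113 to 141 CPM in *mdx* AMuSCs and 631 to 795 CPM in *mdx* FiMuSCs, against 46.5 to 58.4 CPM in WT AMuSCs and 908 to 936 CPM in WT FiMuSCs, so this sum also fell less in *mdx* than in WT, as did the 4 genes with a difference between responses. Of the 10 fibro-adipogenic markers 2 were called higher for that difference, with a median of 0.49. Endothelial markers were lower in 8 of 8 in both genotypes. The part of these markers in the injury responses of the 10 genes, and which cells in the sorted libraries they came from, was not tested.

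**Figure D4:**
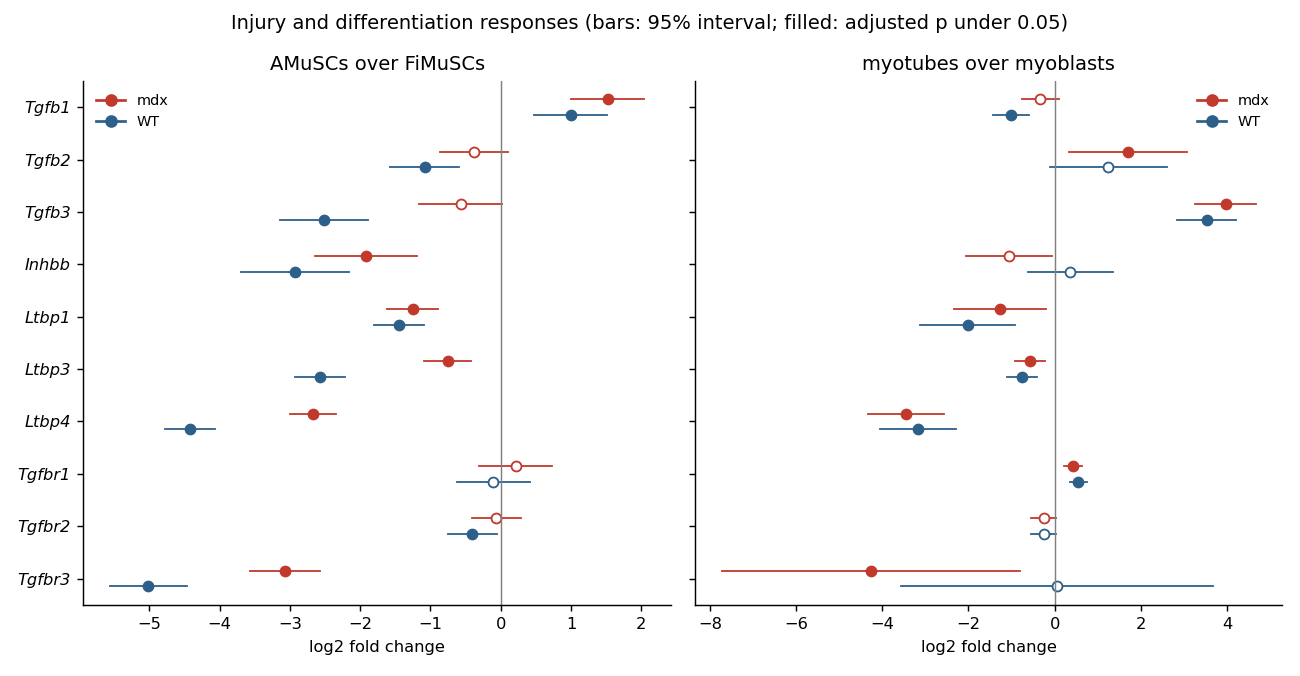
Log2 fold changes with 95% intervals (bars) of AMuSCs over FiMuSCs (left) and of myotubes over myoblasts (right) for *mdx* (red, above) and WT (blue, below), where filled points passed an adjusted p under 0.05. On injury the intervals of *Tgfb3*, *Ltbp3*, *Ltbp4* and *Tgfbr3* do not meet between genotypes, and on differentiation *Tgfb3* lies at 3.97 in *mdx* and 3.53 in WT.

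The third question was how the genes change as myoblasts form myotubes. In *mdx*, 3 genes were higher and 4 were lower in myotubes (57.5% of 18585 genes called, 28.3% higher and 29.3% lower), and in WT 2 were higher and 4 were lower (60.1% called, 29.6% higher and 30.4% lower), so these shares are near the background. In each genotype 7 of the 10 genes had no overlap between states, beside 61.1% of all genes in *mdx* and 71.7% in WT. *Tgfb3* stood out with 539, 415 and 378 CPM in *mdx* myotubes, against 22.6, 36.2 and 28.2 CPM in *mdx* myoblasts, and 355, 369 and 388 CPM in WT myotubes, against 23.6, 48.1 and 23.5 CPM in WT myoblasts. The log2 fold changes were 3.97 ± 0.32 in *mdx* (adjusted p = 2.01e-06) and 3.53 ± 0.31 in WT (adjusted p = 3.25e-06). *Tgfbr1* was also higher in myotubes, by 0.43 ± 0.09 in *mdx* (85.6 ± 4.25 CPM in myotubes, against 65.0 ± 8.61 CPM in myoblasts, adjusted p = 0.00202) and by 0.55 ± 0.09 in WT (112 ± 5.56 CPM in myotubes, against 75.8 ± 4.45 CPM in myoblasts, adjusted p = 0.000316). When libraries were scaled by their totals alone, the *mdx* value was 0.10 and did not pass (adjusted p = 0.463) and the WT value was 0.27 (adjusted p = 0.0462). The *mdx* call was also lost with all 24 libraries in one fit (0.40, adjusted p = 0.0999).

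Among the storage genes *Ltbp4* fell furthest. It had 10.2, 4.80 and 11.3 CPM in *mdx* myotubes, against 86.8, 151 and 56.9 CPM in *mdx* myoblasts (log2 fold change -3.45 ± 0.40, adjusted p = 2.9e-05), and 5.52, 6.76 and 4.79 CPM in WT myotubes, against 47.8, 46.1 and 58.7 CPM in WT myoblasts (-3.17 ± 0.40, adjusted p = 4.8e-05). *Ltbp3* was lower in both genotypes, by -0.57 ± 0.16 in *mdx* (adjusted p = 0.00828) and -0.76 ± 0.16 in WT (adjusted p = 0.00139). *Ltbp1* fell in WT by 2.01 on the log2 scale (adjusted p = 0.00501). In *mdx* its change of -1.27 ± 0.48 just passed (adjusted p = 0.0448), held under 8 of 19 alternatives and was -2.11 without replicate 1 of the *mdx* myotubes.

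*Tgfb1* was lower in WT myotubes, with 31.4 ± 0.748 CPM against 62.7 ± 15.3 CPM in WT myoblasts (log2 fold change -1.01 ± 0.19, adjusted p = 0.000838, or 0.106 with a transcript length offset), while in *mdx* the change of -0.33 ± 0.19 did not pass (adjusted p = 0.163). *Tgfb2* rose in *mdx* by 1.71 ± 0.62 (adjusted p = 0.0365), a call kept under 9 of 19 alternatives, with 2.39 without replicate 2 and 1.27 (adjusted p = 0.0708) without replicate 1 of the *mdx* myoblasts. In WT its change of 1.25 ± 0.61 did not pass (adjusted p = 0.104, called under 5 of 19 alternatives, with 2.00 and adjusted p = 0.0203 without replicate 2 of the WT myoblasts), although the states did not overlap. *Inhbb* had 7.89 ± 2.31 CPM in *mdx* myotubes and 16.7 ± 9.81 CPM in *mdx* myoblasts (-1.06 ± 0.45, adjusted p = 0.0641, called under 4 of 19 alternatives, with -1.44 and adjusted p = 0.00464 without replicate 1 of the *mdx* myoblasts), and 9.26 ± 2.98 CPM in WT myotubes and 7.12 ± 1.76 CPM in WT myoblasts (0.36 ± 0.44, adjusted p = 0.51). *Tgfbr2* had a change of -0.26 ± 0.13 in *mdx* (adjusted p = 0.125) and -0.25 ± 0.13 in WT (adjusted p = 0.126, with -0.37 and adjusted p = 0.0333 without replicate 2 of the WT myoblasts). *Tgfbr3* was called lower in *mdx* (-4.27 ± 1.55, adjusted p = 0.0372), a value that was -0.65 (adjusted p = 0.64) without replicate 2 of the *mdx* myoblasts, and the libraries of the states overlapped. In WT its levels were under 1 CPM in both states, at 0.115 to 0.532 CPM in myotubes and 0.234 to 0.391 CPM in myoblasts. None of the 10 genes passed the test of the difference between differentiation responses by edgeR (0.0592% of 18585 genes called, 0.0269% higher and 0.0323% lower) or by DESeq2. By edgeR 2 of the 10 had an unadjusted p under 0.05, beside 2281 of all 18585 genes.

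Other genes of the pathway were followed in 5 lists of 74 genes. The list of transcriptional targets of TGF-β had the most calls between genotypes in sorted cells. In *mdx* AMuSCs 14 of its 20 genes were higher and 1 was lower (median log2 fold change 1.30, beside 0.04 over all genes), where 14.8% of all genes were called higher and 8.95% lower. In *mdx* FiMuSCs 6 of 20 were higher (median 1.33, beside -0.00), where 5.82% of all genes were. *Col1a1*, a chain of type I collagen, averaged 409.9 ± 130 CPM in *mdx* AMuSCs and 17.0 ± 1.59 CPM in WT AMuSCs (SD, n = 3 each), and *Fn1*, fibronectin, averaged 808 ± 197 CPM in *mdx* AMuSCs and 116 ± 22.0 CPM in WT AMuSCs. Fibro-adipogenic and mesenchymal markers summed to 113 to 141 CPM in *mdx* AMuSCs, against 46.5 to 58.4 CPM in WT AMuSCs, with 5 of 10 called higher and none at 0, and mural markers to 307 to 554 CPM in *mdx* AMuSCs, against 107.6 to 146 CPM in WT AMuSCs. Their part in these differences was not tested. In myotubes 2 of 20 targets were higher in *mdx*, beside 0.373% of all genes, and both were of type I collagen. *Col1a1* was at 18.3 ± 7.80 CPM in *mdx* and 1.02 ± 0.475 CPM in WT, and *Col1a2* at 19.9 ± 9.93 CPM in *mdx* and 1.15 ± 0.328 CPM in WT. The *mdx* myotubes include replicate 1, with 2582 CPM of mural markers, and its part in these differences was not tested. The mural list shares *Acta2* with the list of targets and summed to 1170 to 1222 CPM in WT myotubes, so its sum does not by itself show mural cells.

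Genes of latency, activation and matrix storage were higher in *mdx* AMuSCs in 10 of 20 cases, with none lower (median 1.51), beside 14.8% of all genes higher and 8.95% lower. In *mdx* FiMuSCs 5 of 20 were higher and 1 lower (median 0.64), beside 5.82% and 3.85% of all genes. *Fbn1*, the fibrillin to which the binding proteins attach, had 320.3 ± 23.0 CPM in *mdx* AMuSCs and 108 ± 8.32 CPM in WT AMuSCs. *Thbs1*, thrombospondin-1, an activator of latent TGF-β, had 229.4 ± 49.7 CPM in *mdx* FiMuSCs and 43.7 ± 23.0 CPM in WT FiMuSCs. On differentiation *Itgb6*, a subunit of an integrin that activates latent TGF-β, reached 135.9 ± 15.6 CPM in *mdx* myotubes and 3.71 ± 1.33 CPM in *mdx* myoblasts. The integrin gene and *Tgfb3* were therefore both higher in *mdx* myotubes than in *mdx* myoblasts. This is not a difference between genotypes. In myotubes the only gene of this list called between genotypes was *Fbn1*, and *Tgfb3* did not pass (edgeR adjusted p = 0.49). *Fbn1* was also the only gene of the list called for the difference between differentiation responses.

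For intracellular components the shares of calls between genotypes in sorted cells were near the background. Of 14 Smads and Smad regulators, 2 were higher and 2 lower in *mdx* AMuSCs (median -0.00), beside 14.8% and 8.95% of all genes, and 1 was lower in *mdx* FiMuSCs, beside 3.85%. *Pmepa1*, a feedback inhibitor induced by TGF-β, had 115 ± 31.1 CPM in *mdx* AMuSCs and 38.9 ± 5.52 CPM in WT AMuSCs. For the difference between injury responses 3 of the 14 were called higher and 3 lower, beside 8.14% and 6.98% of all genes. On differentiation 4 of the 14 were higher and 7 lower in *mdx*, beside 28.3% and 29.3% of all genes. In WT 4 were higher and 9 lower on differentiation, beside 29.6% and 30.4%. In myotubes *Smad7*, the inhibitory Smad, was lower and *Smad3* higher than in myoblasts in both genotypes, with *Smad7* at 11.5 ± 3.62 CPM in *mdx* myotubes and 51.6 ± 6.52 CPM in *mdx* myoblasts, and *Smad3* at 119.7 ± 12.7 CPM in *mdx* myotubes and 42.8 ± 7.26 CPM in *mdx* myoblasts. Of 7 co-receptors and receptor modulators, 4 were higher in *mdx* AMuSCs and 2 in *mdx* FiMuSCs, beside 14.8% and 5.82% of all genes. *Cd109*, an inhibitory co-receptor, had 66.2 ± 30.5 CPM in *mdx* FiMuSCs and 6.51 ± 0.942 CPM in WT FiMuSCs, and 132 ± 23.9 CPM in *mdx* AMuSCs and 30.6 ± 5.39 CPM in WT AMuSCs.

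In the activin and myostatin branch 5 of 9 genes were higher in *mdx* AMuSCs, beside 14.8% of all genes, and 1 of 11 in *mdx* FiMuSCs, a share near the 5.82% of all genes. The FiMuSC gene was *Fst*, follistatin, the extracellular inhibitor of activins, at 17.5 ± 13.4 CPM in *mdx* and 0.840 ± 0.229 CPM in WT. *Fstl3*, a related inhibitor, had 16.7 ± 5.62 CPM in *mdx* AMuSCs and 3.99 ± 0.843 CPM in WT AMuSCs, and *Acvr2a*, a type II activin receptor, 84.4 ± 6.90 CPM in *mdx* AMuSCs and 48.7 ± 7.93 CPM in WT AMuSCs. The activin subunit gene *Inhbb*, the inhibitor gene *Fstl3* and this receptor gene were thus all higher in *mdx* AMuSCs. In myoblasts no gene of any list was called between genotypes by edgeR.

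Ordered by mean CPM over the 8 groups, neighbouring groups often overlapped. *Ltbp4* ran from WT FiMuSCs at 1459 CPM through *mdx* FiMuSCs at 995 CPM, *mdx* AMuSCs at 155 CPM, *mdx* myoblasts at 98.3 CPM, WT AMuSCs at 62.4 CPM and WT myoblasts at 50.9 CPM to *mdx* myotubes at 8.77 CPM and WT myotubes at 5.69 CPM. In that order *mdx* AMuSCs and *mdx* myoblasts overlapped, as did *mdx* myoblasts and WT AMuSCs and the myotubes of both genotypes. *Tgfbr3* shared the first 5 places of that order, where its *mdx* myoblasts overlapped both *mdx* AMuSCs and WT AMuSCs. *Inhbb* was highest in *mdx* FiMuSCs, apart from all other groups, and lowest in WT AMuSCs. The genes whose log2 CPM followed a member most closely over the 24 libraries, among 11394 protein-coding genes, were *Chodl* (Pearson r = 0.993) and *Bmp6* (0.991) for *Tgfbr3*, *Adamts10* (0.989) and *Unk* (0.986) for *Ltbp4*, and *Porcn* (0.983) and *Pdk2* (0.973) for *Tgfb3*. For *Tgfb1* they were *B4galt1* (0.954) and *Ecm1* (0.925), and for *Inhbb* *Os9* and *Eng* (0.902 each). *Ltbp4* and *Tgfbr3* correlated at r = 0.901 with each other, and *Inhbb* and *Tgfbr2* at r = 0.884. These 24 points share 8 groups and a kit per cell origin and are not independent.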

How the data were processed

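Poly(A) RNA of the 24 libraries was sequenced with a directional kit. Transcript abundances had been estimated by the authors with Salmon 0.13.1, per the submitters' processing notes, which also name GRCm38 and DESeq2. The deposited files give expected counts, TPM and effective lengths per transcript. Expected counts were summed per gene and rounded here, and gene symbols came from the transcript names. Of 53392 genes, 53355 matched GENCODE M21. Libraries were grouped by their labels. Genotypes were compared with edgeR 4.0.16 (quasi-likelihood test, TMM, filterByExpr, Benjamini-Hochberg adjustment over all genes tested) within each state, in 6 libraries per fit. Responses and their interactions were fitted over 12 sorted or 12 cultured libraries. Fold changes are *mdx* over WT, AMuSC over FiMuSC or myotube over myoblast, SE is the fold change over the root of F, and log2 CPM used a prior count of 2. Alternatives were DESeq2 1.42.0, no filter, RLE factors, library totals, a length offset, a replicate block, each library left out and 1 fit of all 24. Pipelines were tested on simulated data with 200 changed genes. Beyond being called biological replicates, libraries are not tied to separate mice or cultures by the sources used here, so p-values measure the spread between these samples, which may be technical. The members and lists were chosen with earlier results of these data known. Between genotypes and on injury all 10 members are given by level or test, some without a fold change where they did not pass. Up to 3 genes per list and comparison could be named, those past the threshold with the smallest p. Promoter sequences are RefSeq windows on GRCm38.p6.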

Additional observations from a re-analysis of the deposited data

Results flagged for a closer look

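The injury response differed between genotypes for 4 genes, by the test of the difference itself (edgeR interaction term over the 12 sorted libraries, *mdx* minus WT on the log2 scale). The difference was 1.94 for *Tgfb3*, with -0.57 in *mdx* and -2.51 in WT. It was 1.82 for *Ltbp3*, with -0.75 in *mdx* and -2.57 in WT, and 1.75 for *Ltbp4*, with -2.67 in *mdx* and -4.41 in WT. It was 1.94 for *Tgfbr3*, with -3.07 in *mdx* and -5.01 in WT.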

How the results depend on the processing

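In FiMuSCs the 6 calls between genotypes fell to 2 with the replicate block and to 3 with all 24 libraries in one fit, and ranged from 1 to 6 when 1 library was left out. In myoblasts DESeq2 called 2 genes and the fit of all 24 libraries 1, and in myotubes DESeq2 called 2, with 0 to 1 when 1 library was left out. On differentiation in *mdx* the 7 calls became 4 without a filter on low counts and ranged from 4 to 6 when 1 library was left out. The *Tgfbr1* difference in AMuSCs ranged from -0.23 to 0.43 on the log2 scale and was negative without replicate 1 of *mdx*. In AMuSCs 8 genes were called under every replicate left out. Replicate numbers were not used to pair the libraries in the main fits. Deviations of same-numbered libraries correlated at -0.119 to 0.285, and no comparison had all its pairs over 0.1. On differentiation in WT each replicate still correlated best with its own number (0.0604, 0.0286 and 0.0591), as did replicate 1 in *mdx* (0.285). These values cannot decide whether myotubes and myoblasts of the same number were paired. The block gave 8 calls in AMuSCs, 4 for the difference of injury responses, and 8 against 9 on injury in WT. With scaling by library totals the median log2 fold change of all genes was -0.402 on differentiation in *mdx*, against -0.0747 with TMM. It was -0.323 on differentiation in WT, against -0.0445, and -0.257 on injury in WT, against -0.0595. Library totals gave 3716 higher and 7380 lower genes on differentiation in *mdx*, against 5254 and 5438 with TMM. In WT they gave 4298 and 7121, against 5509 and 5657. Among values of single genes and levels, 610 kept direction and side of the threshold (or stayed within 1 SD) under these settings, 23 lost and 16 gained the call and 5 moved, and when 1 library was left out 709 kept, 51 lost and 7 gained it. The cause of these changes was not tested. Alternatives were run for the 10 members and not for genes of the other lists. With 3 libraries a group, small differences are not resolved.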
